A study of Sus scrofa with 12 samples.

Results

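The genes described here carry the names of the vesicle trafficking machinery: small GTPases of the Rab, Arf and Arl families, SNARE proteins of the VAMP, syntaxin and SNAP families, sorting nexins, SEC proteins, and subunits of the COPI coat. They were chosen by name alone, as probe sets with exactly 1 gene symbol beginning RAB, ARF, ARL, VAMP, STX, SNAP, SNX or SEC followed by a digit, or COPA, COPB, COPE, COPG or COPZ. This gave 98 genes out of 6765 genes with a probe set of 1 symbol. Several probe sets existed for 34 of them, and the gene was then read from the brightest one, judged by its mean over the 12 arrays.

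The tissue was endometrium of pigs, the lining of the uterus, collected 14 days after insemination, when the conceptus begins to attach. The 6 pregnant sows (sows 2, 4 and 12 of the Yorkshire breed, and 6, 8 and 10 of the Landrace breed) were compared with 6 non-pregnant sows, whose insemination had used inactivated semen (1, 3 and 11 Yorkshire, and 5, 7 and 9 Landrace). Each sow gave 1 Affymetrix array of flushed uterus, with epithelium, lamina propria and submucosa in the sample and the muscle layer left out, so the values are averages over many cell types. In such bulk tissue, fewer cells of a type and less RNA per cell cannot be told apart.

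Proteins made for secretion enter the endoplasmic reticulum through the SEC61 translocon, leave it in vesicles coated with COPII, and are returned from the Golgi in vesicles coated with COPI, whose assembly is started by Arf GTPases. Rab GTPases mark each membrane compartment and recruit the factors that move and tether vesicles, SNARE proteins then fuse the membranes, and sorting nexins shape the endosomes that recycle cargo. At this stage the glands and the luminal epithelium of the pig uterus secrete proteins into the lumen, which nourish the conceptuses before the placenta forms.

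Values are log2 expression values made by the authors with RMA, a method that makes the arrays' distributions alike, so that a value has meaning only against the rest of its own array. Differences are pregnant minus non-pregnant, or Landrace minus Yorkshire, on the log2 scale, with the standard error (SE) of the limma model. A gene is said to have risen or fallen, or is called, where limma's p-value adjusted by Benjamini-Hochberg over all 23999 probe sets was under 0.05. The array medians lay between 6.25 and 6.30. The lower quartile of the arrays lay between 4.58 and 4.71, and 2 of the 98 genes had a mean below the lowest of these quartiles, while 83 had a mean above the highest array median. Values of different probe sets are not compared with each other, because probes differ in how strongly they bind.

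Of the 98 trafficking genes, 5 were higher and 12 lower in pregnant sows. The genes that rose were RAB15, RAB9A, RAB24, RAB23 and SEC62, of which 4 are Rab GTPases. Those that fell were RAB26, RAB10, ARF2, ARF4, ARL6IP5, SNX22, SNX3, the COPI subunits COPG1 and COPZ1, the COPII subunits SEC13 and SEC23B, and SNAP91, a clathrin adaptor. Over all 6765 genes, 12.1% were called, with 4.58% higher and 7.48% lower in pregnant sows, against 17.3% of the trafficking genes, with 5.10% higher and 12.2% lower. The median difference was -0.10 over the 98 genes and -0.03 over all genes, and 66 of the 98 (67.3%) had a difference below 0, against 55.7% of all genes. The gap to all genes in the share that fell depended on the arrays and settings of the fit. Without sow 12 the share was 20.4% against 10.7% of all genes, and with array weights it was 23.5% against 13.8%. Without sow 5, 10 or 11 the share that fell was 4.08% of the trafficking genes each time, below the 4.39%, 4.82% and 5.81% of all genes, and with an intensity trend and robust prior it was 7.14% against 6.55%. The median difference of the trafficking genes lay below that of all genes in each of these fits. No test of the list as a whole was made, since the genes of a list are not independent.

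Most differences were small. The difference was under 0.5 in size in 86 of the 98 genes and above 1 in 3, namely RAB26, RAB27B and RAB15. At an unadjusted p under 0.05 there were 39 trafficking genes (39.8%), against 31.3% of all genes. The values of the pregnant and non-pregnant sows did not overlap in 5 genes (5.10%), RAB15 and RAB9A higher and SEC13, COPG1 and ARF1 lower in pregnant sows, against 4.54% of all genes.

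**Figure D1:**
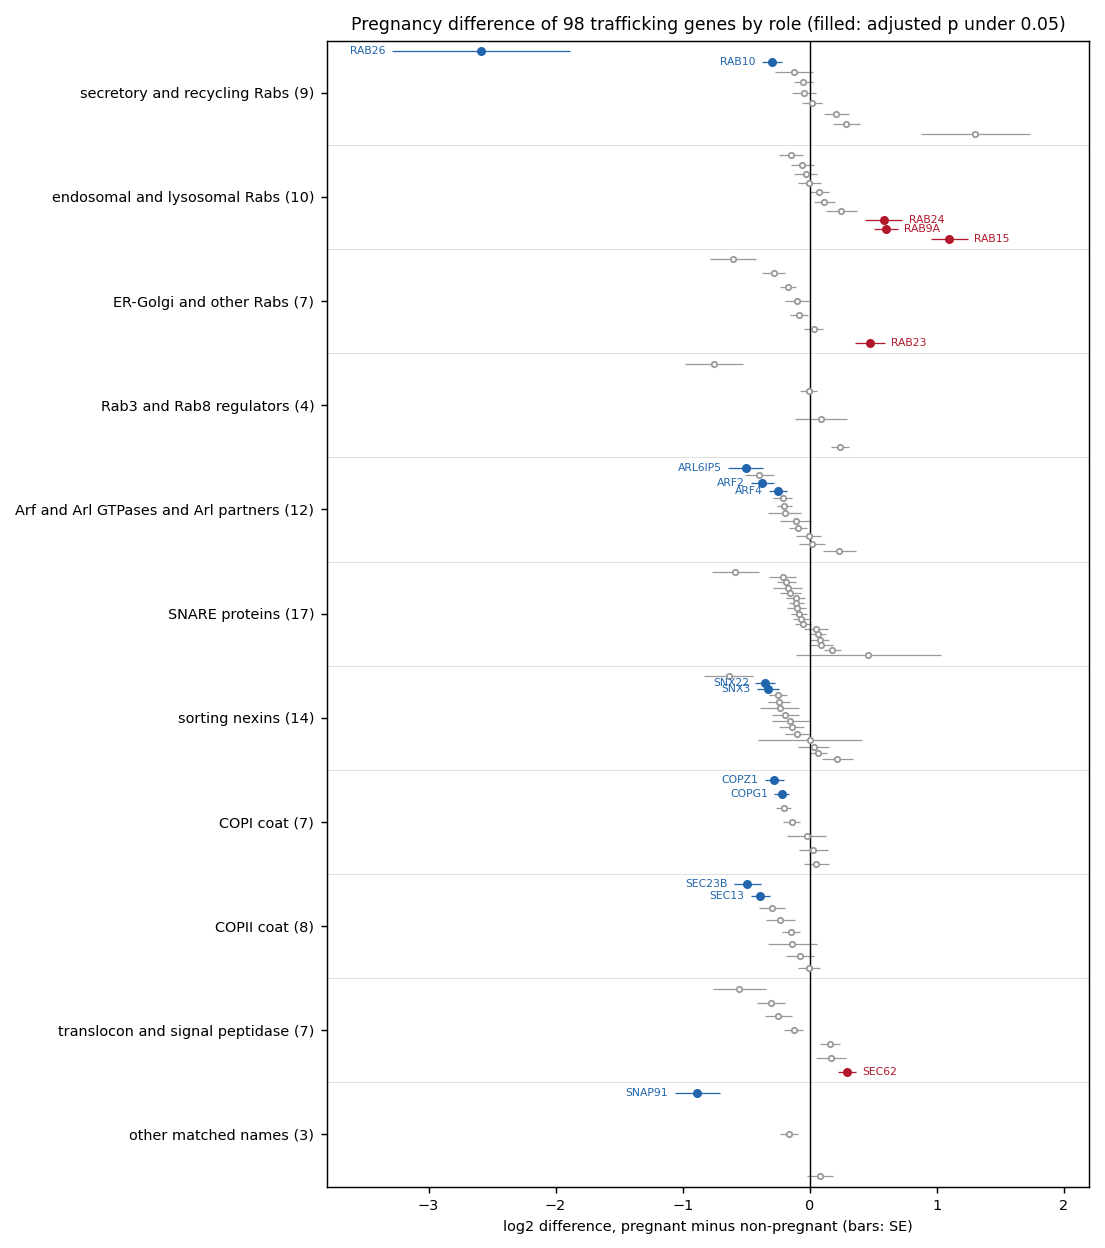
Pregnancy difference of the 98 trafficking genes, grouped by role with the number of genes in brackets. The x axis gives the log2 difference, pregnant minus non-pregnant, with bars for the SE of the limma model; filled points are genes with an adjusted p under 0.05, red for higher and blue for lower in pregnant sows. The 5 genes that rose are 3 endosomal Rabs, RAB23 and SEC62, all 8 COPII genes lie below 0, and RAB26 lies farthest to the left at -2.59.

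Among the 10 Rabs of endosomes and lysosomes, 3 rose and 0 fell, and the median difference was 0.10. RAB15, which regulates transport through early and recycling endosomes, had values of 7.04, 7.24 and 7.45 (lowest, median and highest) in the non-pregnant sows and of 8.07, 8.23 and 8.83 in the pregnant sows. Every pregnant sow was above every non-pregnant sow. The mean was 8.37 ± 0.35 (SD, n = 6) in pregnant and 7.27 ± 0.15 (SD, n = 6) in non-pregnant sows, a difference of 1.10 ± 0.14 (SE), or 2.14-fold (limma adjusted p = 0.00395).

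RAB9A returns mannose 6-phosphate receptors from late endosomes to the Golgi. Its lowest, median and highest values were 8.21, 8.30 and 8.43 in non-pregnant and 8.69, 8.89 and 9.26 in pregnant sows, again without overlap. The difference was 0.60 ± 0.09 (SE), or 1.52-fold (limma adjusted p = 0.00584), and a second probe set of the gene gave 0.65 (adjusted p = 0.00587).

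RAB24, a Rab found on autophagic vesicles, ranged from 8.0 to 9.11 (median 8.49) in non-pregnant sows and from 8.80 to 9.36 (median 9.10) in pregnant sows. The groups overlapped, since the 3 non-pregnant Landrace sows lay at 8.73 to 9.11 and the 3 non-pregnant Yorkshire sows at 8.0 to 8.26. The difference was 0.58 ± 0.15 (SE; limma adjusted p = 0.0332), and another probe set gave 0.38 (adjusted p = 0.0416). None of the other 7 endosomal Rabs was called. Their differences ran from -0.15 for RAB7A, the Rab of late endosomes and lysosomes, to 0.25 for RAB32, which serves lysosome-related organelles, and that of RAB4B, a Rab of rapid recycling, was 0.00.

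The 9 secretory and recycling Rabs held 0 that rose and 2 that fell. RAB26, which is associated with secretory granules and with their turnover, had the widest range of all. In non-pregnant sows it read 6.52 at the lowest, 11.08 at the median and 11.39 at the highest, and in pregnant sows 5.97, 7.13 and 10.93. The 3 pregnant Landrace sows lay at 5.97, 6.20 and 6.29, at least 4 units below 5 of the 6 non-pregnant sows. Non-pregnant sow 7, at 6.52, read close to those 3 sows, and pregnant sow 12, at 10.93, read as the non-pregnant group did. The difference was -2.59 ± 0.70 (SE), a 6.01-fold lower level (limma adjusted p = 0.0432), with 5 of 6 pregnant sows below the non-pregnant mean.

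RAB10, which carries cargo to the cell surface, read 10.45, 10.58 and 10.73 in non-pregnant sows and 10.12, 10.26 and 10.56 in pregnant sows, lowest, median and highest. Only pregnant sow 12 lay within the non-pregnant range. The difference was -0.30 ± 0.08 (SE; limma adjusted p = 0.0403), and 3 further probe sets gave -0.22, -0.12 and -0.26, none of them called. RAB27B, which serves granule and exosome release, did not pass the test, with a difference of 1.30 ± 0.43 (SE; limma adjusted p = 0.0841). It is named here because of its size, after its values were seen. In non-pregnant sows it ran from 4.70 to 6.47 (median 5.77), and in pregnant sows from 5.31 to 7.97 (median 6.88), with sow 12 the lowest pregnant sow. The remaining 6 genes of this group, among them RAB11A and RAB11B of recycling endosomes and RAB3A and RAB3D of regulated secretion, had differences between -0.12 (RAB8A) and 0.29 (RAB13).

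Of the 7 Rabs with roles between the endoplasmic reticulum and the Golgi or elsewhere, 1 rose and 0 fell. The gene that rose, RAB23, restrains Hedgehog signalling and acts at the primary cilium. Its values were 6.83, 7.12 and 7.33 in non-pregnant sows and 7.18, 7.55 and 7.95 in pregnant sows, lowest, median and highest. Sow 12 was the only pregnant sow within the non-pregnant range. The difference was 0.47 ± 0.12 (SE; limma adjusted p = 0.0313), and the 2 other probe sets gave 0.59 (adjusted p = 0.0331) and 0.20 (adjusted p = 0.0978). RAB1A and RAB2A, which serve transport between the endoplasmic reticulum and the Golgi, had differences of -0.29 and -0.17 (limma adjusted p = 0.0782 and 0.115). The largest difference of the group was that of RAB19, at -0.60, which was not called. Its other probe set gave -0.28 (adjusted p = 0.119). RAB19 is named because of its size, after its values were seen.

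The 4 regulators whose names begin with RAB3 had 0 called genes. RAB3IP, also called Rabin8, activates RAB8 for transport to the cilium and the apical surface. It read 6.99, 7.74 and 7.88 in non-pregnant and 6.34, 6.83 and 7.66 in pregnant sows, with sow 7 the lowest of its group and sow 12 the highest of its group. The difference was -0.75 ± 0.23 (SE; limma adjusted p = 0.0622). That of RAB3IL1, an activator of RAB3A, was 0.24 ± 0.07 (SE; adjusted p = 0.0632). RAB3GAP1 and RAB3GAP2, the subunits of a complex that switches Rab3 off, had differences of -0.01 and 0.09. In RAB3GAP2 sows 11 and 12, both Yorkshire and of opposite status, read 7.33 and 7.41, and the other 10 sows between 8.17 and 8.84. Other probe sets of the gene correlated with this one at r = 0.07 and -0.20 over the 12 sows. The low values of sows 11 and 12 thus hold for this probe set only.

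In the group of 12 Arf and Arl GTPases and partners of Arl proteins, 0 rose and 3 fell, 10 had a difference below 0, and the median was -0.20. ARF2, a class I Arf of the Golgi, had values of 7.62, 7.88 and 8.14 in non-pregnant and 7.14, 7.54 and 7.78 in pregnant sows. The ranges overlapped, and all 6 pregnant sows were below the non-pregnant mean. The difference was -0.37 ± 0.09 (SE; limma adjusted p = 0.0263), whereas another probe set of ARF2 gave -0.08 (adjusted p = 0.675). ARF4, a class II Arf of the early secretory pathway, went from 11.11 ± 0.10 to 10.86 ± 0.11 (SD, n = 6 each), a difference of -0.25 ± 0.07 (SE; adjusted p = 0.0488). In ARF4, 5 of the 6 pregnant sows were below every non-pregnant sow. ARL6IP5, an endoplasmic reticulum protein of the Rab acceptor family, fell by 0.50 ± 0.14 (SE; adjusted p = 0.0413), from a range of 9.11 to 9.78 to one of 8.69 to 9.36, and its other probe set gave -0.44 (adjusted p = 0.133).

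ARF1, the Arf that recruits coatomer to the Golgi, did not pass the test although its groups did not overlap. It read 11.60 to 11.69 in non-pregnant and 11.30 to 11.54 in pregnant sows, a difference of -0.20 ± 0.06 (SE; limma adjusted p = 0.0548). ARL3, a GTPase of cilia, had a difference of -0.40 (adjusted p = 0.0552). ARF6, the Arf of the cell surface, had one of 0.02, and ARF5 one of 0.23 (adjusted p = 0.325).

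Both vesicle coats of the early secretory pathway held genes that fell and none that rose. In the COPII coat, which buds vesicles from the endoplasmic reticulum, all 8 genes had a difference below 0, with a median of -0.19, and 2 of the 8 passed the test. SEC13, a subunit of the outer cage that is also part of the nuclear pore, read 7.88, 8.03 and 8.25 in non-pregnant sows and 7.49, 7.65 and 7.81 in pregnant sows, lowest, median and highest. The groups did not overlap, and the difference was -0.39 ± 0.07 (SE; limma adjusted p = 0.0119). SEC23B, of the inner coat, read 9.12, 9.28 and 9.55 in non-pregnant and 8.60, 8.78 and 9.13 in pregnant sows, with sow 12 the only pregnant sow inside the non-pregnant range. Its difference was -0.49 ± 0.10 (SE; adjusted p = 0.0165). The other 6 COPII genes had differences from -0.30 for SEC23IP, a partner of SEC23, to -0.01 for SEC31A, a subunit of the outer cage.

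The COPI coat, or coatomer, had 2 of 7 genes called. COPG1, the gamma subunit, read 9.21, 9.33 and 9.41 in non-pregnant sows and 9.01, 9.09 and 9.17 in pregnant sows. There was no overlap, and the difference was small in size, -0.22 ± 0.06 (SE; limma adjusted p = 0.0401). COPZ1, the zeta subunit, went from 9.18 ± 0.15 to 8.90 ± 0.14 (SD, n = 6 each), a difference of -0.28 ± 0.08 (SE; adjusted p = 0.0418). The beta subunit COPB1 had a difference of -0.21 (adjusted p = 0.0511), and its other probe set one of -0.32 (adjusted p = 0.0408). For the paralogs COPG2 and COPZ2 the differences were -0.02 and 0.05, and neither was called.

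Among the 7 genes of the translocon and the signal peptidase, SEC62 rose. SEC62 takes part in the import of proteins into the endoplasmic reticulum and in the turnover of that membrane. It read 9.44, 9.52 and 9.70 in non-pregnant and 9.70, 9.74 and 10.10 in pregnant sows, and 5 of the 6 pregnant sows were above every non-pregnant sow. The difference was 0.29 ± 0.07 (SE; limma adjusted p = 0.0298). The channel subunits SEC61A1, SEC61B and SEC61G had differences of -0.13, -0.25 and -0.31, none of them called, and SEC63, a partner of SEC62, one of 0.16 (adjusted p = 0.272). Another probe set of SEC61G, near the background level with a mean of 4.32, gave 0.02 (adjusted p = 0.930).

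Of the 14 sorting nexins, 0 rose and 2 fell, with 10 below 0 and a median of -0.17. SNX22, a small member with a phosphoinositide-binding domain, read 11.50, 11.76 and 11.96 in non-pregnant sows and 11.25, 11.41 and 11.54 in pregnant sows. The difference was -0.35 ± 0.08 (SE; limma adjusted p = 0.0209), with 4 of 6 pregnant sows below every non-pregnant sow. SNX3, which works with retromer to recycle cargo such as Wntless, read 11.32, 11.53 and 11.74 in non-pregnant and 11.07, 11.12 and 11.60 in pregnant sows. Pregnant sow 12 stood at 11.60 and the other 5 at or below 11.18. The difference was -0.33 ± 0.09 (SE; adjusted p = 0.0376). SNX1 and SNX5, which form tubules on endosomes, had differences of -0.25 and -0.64 (adjusted p = 0.0518 and 0.0598).

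None of the 17 genes grouped by name as SNARE proteins was called for pregnancy by limma. VTI1B, a SNARE whose name the rule does not match, fell and is given below among the partners. Of the 17 genes, 3 had an unadjusted p under 0.05 (17.6%, against 31.3% of all genes). A difference below 0 was found in 11, and the median was -0.09. STX18, a SNARE of the endoplasmic reticulum that receives vesicles from the Golgi, read 8.87, 9.65 and 9.77 in non-pregnant sows and 8.59, 8.76 and 9.51 in pregnant sows. The difference was -0.59 ± 0.19 (SE; limma adjusted p = 0.0776), and another probe set gave -0.30 (adjusted p = 0.190). STX11, which acts in granule release of immune cells, had a difference of 0.46 ± 0.57 (SE; adjusted p = 0.705), with a range of 4.77 to 8.86 in non-pregnant and of 5.56 to 7.07 in pregnant sows. The remaining 15 SNARE genes, among them VAMP8, VAMP3, VAMP2, SNAP23 and STX4 of exocytosis, had differences between -0.21 (STX8) and 0.18 (SNAP25, which is near the background level).

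SNAP91 carries a name that matches the SNAP family, but it encodes AP180, which assembles clathrin coats and is no SNARE. It read 6.48, 6.95 and 7.27 in non-pregnant and 5.73, 5.93 and 6.62 in pregnant sows, and 5 of the 6 pregnant sows were below every non-pregnant sow. The difference was -0.89 ± 0.18 (SE), or 1.85-fold (limma adjusted p = 0.0139). SEC14L1 and SEC14L2, lipid-transfer proteins whose names also match, had differences of -0.16 and 0.08 and were not called.

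**Figure D2:**
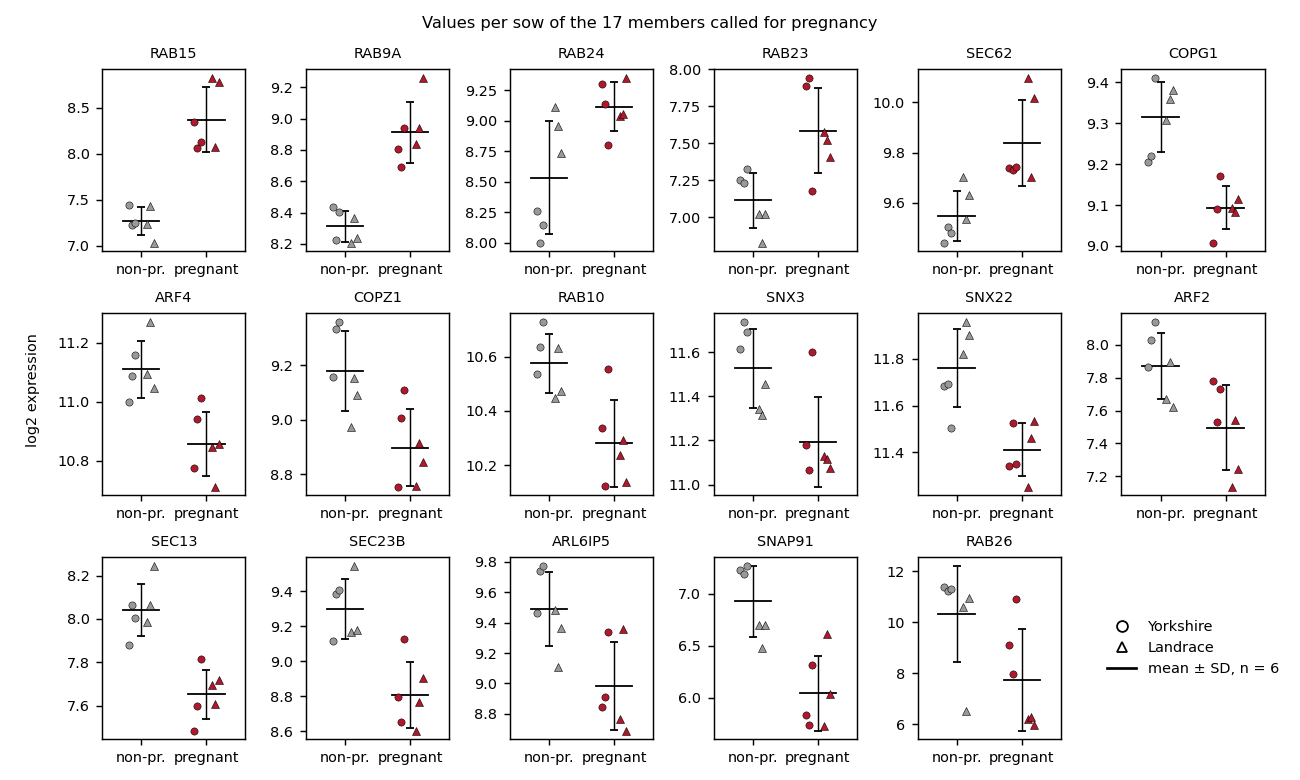
Log2 expression per sow of the 17 trafficking genes called for pregnancy, each panel on its own y axis. Circles are Yorkshire and triangles Landrace sows, grey non-pregnant and red pregnant; lines and bars give the mean ± SD (n = 6). RAB15, RAB9A, SEC13 and COPG1 show no overlap, and in RAB26 1 non-pregnant and 1 pregnant sow lie with the opposite group.

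How far these calls rest on single sows differed from gene to gene. RAB15, RAB9A, SEC13, SNAP91 and SEC23B passed whichever of the 12 sows was removed. The count of 5 genes that rose went to 2 or 3 without sow 1, 2, 3, 4, 6, 9 or 10, and to 8 without sow 12. The count of 12 that fell went to 4 or 5 without sow 2, 3, 4, 5, 6, 9, 10 or 11, and to 20 without sow 12. The shares of all genes moved too in these fits. The share that rose went from 4.58% to between 2.66% and 3.27%, and to 5.26% without sow 12. The share that fell went from 7.48% to between 3.50% and 5.81%, and to 10.7% without sow 12. Such counts are therefore no result about the trafficking genes alone. SNX22 lost its call without sow 9 only (adjusted p = 0.0535). ARF2 lost it without sow 3, 4, 5, 6, 10 or 11 (adjusted p up to 0.0638), SEC62 without sow 1, 2, 3, 4, 6, 9 or 10 (up to 0.0692), RAB23 without sow 1, 2, 3, 4, 5, 6, 9 or 10 (up to 0.0776), and RAB24 without sow 1, 2, 3, 4, 9, 10 or 11 (up to 0.0774). SNX3 and ARL6IP5 lost theirs without sow 1, 2, 3, 4, 5, 6, 9, 10 or 11 (up to 0.0899 and 0.0979). RAB10 and COPZ1 lost theirs without sow 2, 3, 4, 5, 6, 7, 9, 10 or 11 (up to 0.0856 and 0.0954). COPG1 and ARF4 did so without any sow from 2 to 11 (up to 0.0958 and 0.113), and RAB26 without any sow but 7 and 12 (up to 0.0967). All of these kept their direction without single sows, and the difference of RAB26 stayed between -3.15 and -2.17.

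Other settings ended calls as well. Without the breed term ARF2, SEC62, RAB23, RAB24, SNX3, RAB10, ARL6IP5, COPZ1, RAB26 and ARF4 were not called (adjusted p from 0.0550 for ARF4 to 0.156 for RAB26). With an intensity trend and robust prior COPG1, RAB10, COPZ1, RAB26 and ARF4 were not called (0.0534 to 0.0728), and with cyclic loess COPG1, RAB10 and ARF4 were not (0.0534 to 0.116). The probe set with the largest spread ended the calls of RAB10 and ARL6IP5 (0.192 and 0.133), and the mean of all probe sets that of ARF2 (0.0710). SEC62 was not called without sows 7 and 12 together (0.0588).

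Sows 12, 1, 5 and 7 stood nearest to the opposite group in several of these genes. Pregnant sow 12 was the pregnant sow nearest to the non-pregnant mean in 10 of the 17 called genes (58.8%), against 47.9% of the 816 genes called in all. Non-pregnant sow 7 was nearest to the pregnant mean in 4 of the 17 (23.5%), against 32.6%, and sow 1 in 6 of the 17 (35.3%), against 19.5%. Non-pregnant sow 5 was nearest in 4 of the 17 as well (23.5%), against 16.2%. Without sow 7, STX11 was called with a difference of 1.07 (limma adjusted p = 0.0197). RAB3IP was called without sow 7 or without sow 12 (adjusted p of 0.0142 to 0.0234), STX18 without sow 7, 8 or 12 (0.0245 to 0.0345), and RAB3IL1 without sow 11 or 12 (0.0375 to 0.0392). SNX10, an endosomal nexin named after its values were seen, read 8.85 in sow 7 and between 5.92 and 7.05 in the other non-pregnant sows, and its difference over all sows was 0.00 ± 0.41 (SE). Sow 7 also had the highest mean of the macrophage markers, 2.17 above the non-pregnant mean. Whether this level had a part in the values of STX11 or SNX10 was not tested.

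**Figure D3:**
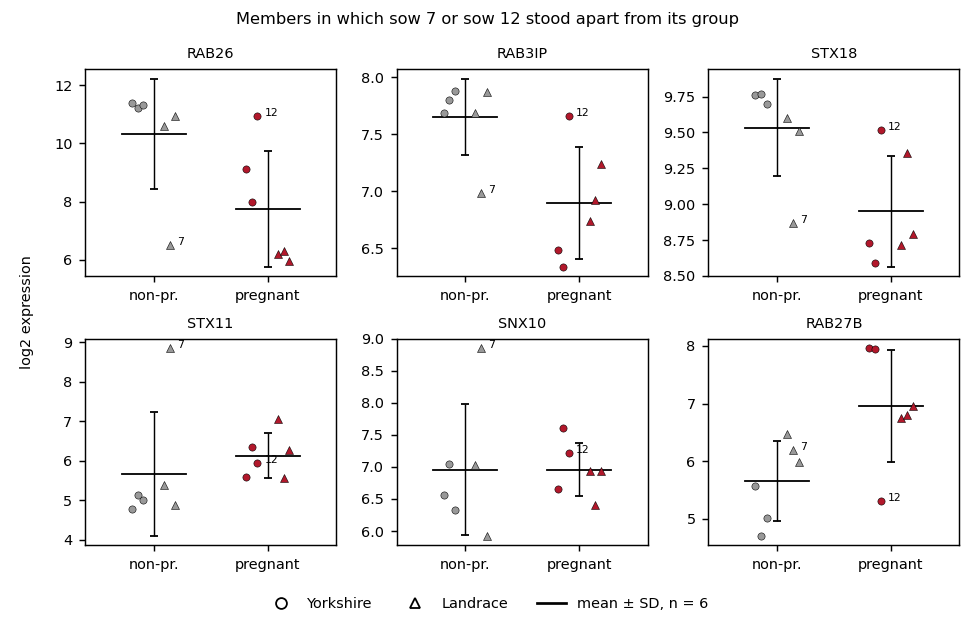
Log2 expression per sow of RAB26, RAB3IP, STX18, STX11, SNX10 and RAB27B, with sows 7 and 12 numbered. Circles are Yorkshire and triangles Landrace sows; lines and bars give the mean ± SD (n = 6). Sow 7 is the lowest non-pregnant sow in RAB26, RAB3IP and STX18 and the highest in STX11 and SNX10, and sow 12 is the highest pregnant sow in RAB26, RAB3IP and STX18 and the lowest in RAB27B.

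The labelled tissue was checked against markers of the cell types it could hold, each list averaged per sow relative to the mean of the non-pregnant sows. The epithelial markers EPCAM and CDH1 were at 11.46 and 10.98 in pregnant and 11.60 and 10.64 in non-pregnant sows. Over 15 of 20 listed epithelial genes the mean ran from -0.43 to 0.11 in pregnant and from -0.13 to 0.09 in non-pregnant sows, and 2 rose and 2 fell, among the latter KRT8 (-0.83, limma adjusted p = 0.0422). The endothelial list (10 of 12 measured) lay at 0.31 to 0.87 in pregnant and -0.30 to 0.24 in non-pregnant sows, without overlap, and 6 of its genes rose, among them VWF and CDH5 (0.91 and 0.92). The stromal list (8 of 10) lay at -0.02 to 0.59 against -0.28 to 0.29, with 4 rising and 1 falling, and VIM rose by 0.65. The smooth muscle list (8 of 10) lay at 0.04 to 0.65 against -0.17 to 0.22.

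Leukocyte markers varied more between sows. The neutrophil list (5 of 8) lay at 0.49 to 2.82 in pregnant and -0.49 to 1.36 in non-pregnant sows, with sow 12 the lowest pregnant and sow 7 the highest non-pregnant sow. Its 5 genes had differences from -0.05 to 7.05 with a median of 1.07, and only the largest was called. The mean of the list thus leaned on 1 gene. The macrophage list (6 of 10) lay at -0.15 to 0.44 against -0.49 to 2.17, and the lymphocyte list (11 of 18) at -0.12 to 0.30 against -0.28 to 0.93. Of the conceptus markers (10 of 16), with a range of -0.08 to 1.50 against -0.22 to 0.22, CYP17A1 and CYP19A1 stayed at 4.73 to 5.51 in every sow, while IFNG reached 12.65 in 1 pregnant sow, number 10. The erythrocyte list (3 of 6) lay at -0.27 to 0.37 against -0.14 to 0.20. The part of any of these cell types in the trafficking differences was not tested.

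The pregnancy difference was also taken within each breed, in a fit of 4 groups of 3 sows. Within Yorkshire 0 of the 98 genes were called by limma, as was 0.0% of all genes. An unadjusted p under 0.05 was found in 26 (26.5%), against 21.7% of all genes. Without sow 12 there were 13 calls within Yorkshire, and without sow 8 there were 3. The shares of all genes in these 2 fits are not given here. Over both breeds, 10.7% of all genes fell without sow 12, against 7.48% with all sows, so such counts are no result about the trafficking genes alone. Within Landrace 3 were called, RAB15 (1.33, adjusted p = 0.0142), RAB9A (0.74, adjusted p = 0.0213) and SEC11C (-1.09, adjusted p = 0.0359), against 1.64% of all genes. A fit on the 6 Landrace arrays alone called none of these 3, nor any other of the 98 genes. The count of 3 went to 0 without sow 5, 6, 9 or 10 and to 5 without sow 8 or 12, again without the shares of all genes. Within Landrace the GAPDH 3' to 5' ratio, a measure of RNA length, also separated the groups, at 1.18 ± 0.06 (SD, n = 3, range 1.15 to 1.25) in pregnant and 0.96 ± 0.08 (SD, n = 3, range 0.87 to 1.04) in non-pregnant sows on the log2 scale. Within Yorkshire it was 1.54 ± 0.05 and 1.44 ± 0.17 (SD, n = 3 each), with overlap. Its part in the pregnancy differences was not tested. The sign was the same in both breeds in 77 of the 98 genes (78.6%), against 70.3% of all genes. Of the 22 trafficking genes whose difference was over 0.25 in size in both breeds, 20 had the same sign, as had 1289 of the 1403 such genes in all.

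A call in 1 breed only does not show that the breeds differ, so the difference between the breeds was tested directly. No trafficking gene was called for this interaction by limma, and 7 (7.14%) had an unadjusted p under 0.05, against 4.97% of all genes. Without sow 12 there was 1 call, and the share of all genes in that fit is not given here. SEC11C, a catalytic subunit of the signal peptidase that cuts the signal sequence from secreted proteins, had the smallest p. In Landrace sows it read 10.26 to 10.83 in the non-pregnant and 9.05 to 9.77 in the pregnant, and in Yorkshire sows 9.65 to 10.09 and 9.75 to 9.87. The Landrace values thus did not overlap between the groups, and the Yorkshire values did. The differences were -1.09 in Landrace and -0.02 in Yorkshire, an interaction of -1.07 ± 0.29 (SE; limma adjusted p = 1.00).

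RAB24 had a pregnancy difference of 0.95 in Yorkshire and 0.21 in Landrace, an interaction of -0.74 ± 0.21 (SE; limma adjusted p = 1.00). The non-pregnant Yorkshire sows were the low group in this gene. SEC61G, the gamma subunit of the translocon, had differences of -0.06 in Yorkshire and -0.56 in Landrace (interaction -0.50 ± 0.18 SE, limma adjusted p = 1.00). Under other settings the interaction of SEC61G lay between -0.54 and -0.26. For RAB26 the differences were -1.97 and -3.21, for SNAP91 -1.27 and -0.50, and for RAB27B 1.98 and 0.63, in Yorkshire and Landrace, and none of these interactions was called.

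**Figure D4:**
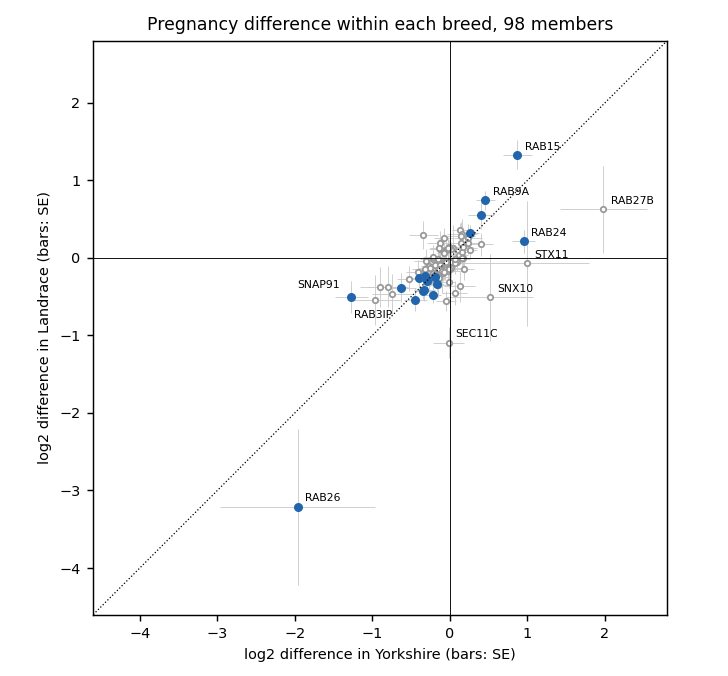
Pregnancy difference of each of the 98 trafficking genes in Yorkshire (x axis) and in Landrace sows (y axis), as log2 differences with bars for the SE; filled points are genes called over both breeds, and the dotted line marks equal differences. In 77 of the 98 genes the sign is the same in both breeds, RAB26 lies far below 0 in both, and SEC11C lies near 0 in Yorkshire and at -1.09 in Landrace.

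Between the breeds, 2 of the 98 genes were higher in Landrace sows and 0 were lower, against 2.03% higher and 3.24% lower over all genes (5.26% in either direction). STX4, a SNARE of the plasma membrane that receives secretory vesicles, read 7.18, 7.58 and 7.63 in Yorkshire and 7.82, 7.96 and 8.20 in Landrace sows, lowest, median and highest. The breeds did not overlap. The difference was 0.47 ± 0.08 (SE), or 1.39-fold (limma adjusted p = 0.00718), and another probe set gave 0.37 (adjusted p = 0.00983).

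SNX14, a sorting nexin of the endoplasmic reticulum that is linked to lipid droplets and to a human ataxia, read 6.84, 7.33 and 7.68 in Yorkshire and 7.87, 8.04 and 8.13 in Landrace sows. The breeds did not overlap in this gene either. The difference was 0.70 ± 0.12 (SE), or 1.62-fold (limma adjusted p = 0.00790), while another probe set gave 0.36 (adjusted p = 0.0648). Both genes passed whichever of the 12 sows was removed, and their pregnancy differences were -0.15 and 0.03. Over all genes the breeds did not overlap in 2.88%, against these 2 of 98.

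RAB26 and ARF2 came next in breed, with Landrace minus Yorkshire differences of -2.57 ± 0.70 and -0.33 ± 0.09 (SE; limma adjusted p = 0.0563 and 0.0560). At an unadjusted p under 0.05 there were 7 genes higher and 14 lower in Landrace. Together these were 21.4% of the trafficking genes, against 21.9% of all genes (675 higher and 809 lower of 6765). The count of 0 genes lower in Landrace went to 4 without sow 8, to 2 without sow 12 and to 1 without sow 5, 7 or 9. The shares of all genes in these fits are not given here, so such counts are no result about the trafficking genes alone. The ratio of the 3' to the 5' control probe set of GAPDH, a measure of RNA length in which a higher value goes with shorter RNA or cRNA, also differed by breed, at 1.07 ± 0.14 in Landrace and 1.49 ± 0.13 in Yorkshire sows (log2, SD, n = 6 each), with ranges of 0.87 to 1.25 and 1.31 to 1.63. Over both breeds it was 1.36 ± 0.20 (pregnant) and 1.20 ± 0.29 (non-pregnant). Its part in the breed differences was not tested.

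Taken within each status, breed gave 1 call among the non-pregnant sows, RAB24 (0.80 higher in Landrace, limma adjusted p = 0.0348), against 1.23% of all genes. That call was lost without sow 1, 3, 5, 6 or 7, with 0 genes called then, and without sow 12 there were 2 calls. Among the pregnant sows limma called 0 trafficking genes, against 0.591% of all genes. At an unadjusted p under 0.05 there were 10 trafficking genes (10.2%), against 13.0% of all genes. Without sow 7 there was 1 call. For both statuses, the shares of all genes in the fits without 1 sow are not given here.

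**Figure D5:**
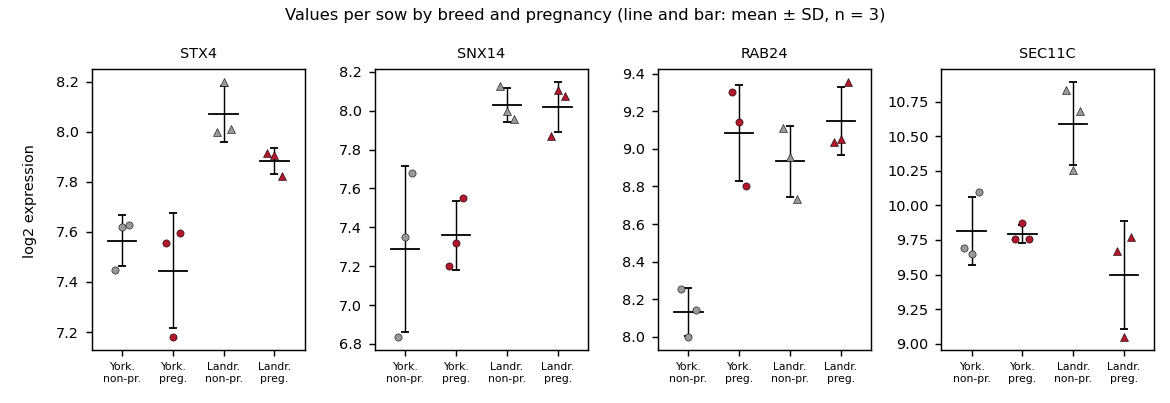
Log2 expression per sow of STX4, SNX14, RAB24 and SEC11C in the 4 groups of breed and pregnancy, with lines and bars for the mean ± SD (n = 3). STX4 and SNX14 are higher in all 6 Landrace sows than in any Yorkshire sow, RAB24 is lowest in the non-pregnant Yorkshire sows, and SEC11C is highest in the non-pregnant Landrace sows.

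The partners with which these genes work were followed in 7 lists made by role. The share called for pregnancy ran from 0.0% (the Rab cycle) to 16.0% (clathrin), with 4 of the 7 lists below the 12.1% of all genes. Among 17 measured SNARE partners (36 listed), 0 rose and 2 fell (11.8% called), and 15 had a difference below 0. SCFD1, the Sec1 family protein that works with syntaxin 5 in transport between the endoplasmic reticulum and the Golgi, had a difference of -0.44 ± 0.08 (SE; limma adjusted p = 0.00890). VTI1B, a SNARE of late endosomes, had one of -0.33 ± 0.08 (SE; adjusted p = 0.0241). Without sow 2, 3, 6 or 9 there was 1 call in this list.

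Partners of export from the endoplasmic reticulum and of translocation (44 of 55 measured) held 1 gene that rose and 5 that fell (13.6% called), with 33 below 0 and a median of -0.14. Among those that fell were YIPF1, a Golgi membrane protein (-0.65, limma adjusted p = 0.0180), CNIH1, a cargo receptor (-0.43, adjusted p = 0.0186), BCAP31, an endoplasmic reticulum chaperone (-0.24, adjusted p = 0.0291), and TMED5, a p24 protein (-0.39, adjusted p = 0.0298). The count that fell was 2 without sow 2, 3, 9 or 10, 3 without sow 1, 4 or 6, and 10 without sow 12. The count that rose went to 0 without sow 1, 2, 3, 4, 5, 6 or 9. By breed, 5 genes of this list (11.4%) were higher in Landrace and 0 lower, against 2.03% higher and 3.24% lower over all genes. Among the 5 were KDELR2, the receptor that retrieves resident proteins (0.94, adjusted p = 0.00478), SAR1B, the GTPase that starts the COPII coat (0.44, adjusted p = 0.0123), SRPRB, of the receptor for the signal recognition particle (0.44, adjusted p = 0.0293), and TMED5 (0.37, adjusted p = 0.0466). Other lists held breed calls too. Retromer and ESCRT had 1 higher and 3 lower in Landrace (15.4%), and the Rab cycle 1 higher and 2 lower (12.5%), against 5.26% of all genes in either direction. The Arf, tethering and clathrin lists each had 0 higher and 1 lower, and SNARE partners had 0 calls.

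Of 20 measured Arf regulators (36 listed), 0 rose and 2 fell (10.0% called, under the share of all genes). These were the Arf exchange factor GBF1, which activates Arf at the early Golgi (-0.54 ± 0.15 SE, limma adjusted p = 0.0433), and ARFIP2, an Arf-binding protein (-0.24 ± 0.06 SE, adjusted p = 0.0404). Without sow 1, 2, 3, 4, 5, 6, 9 or 10 neither was called, and without sow 7 or 11 there was 1 call. Among 24 regulators of the Rab cycle (73 listed), limma called 0, and 8 had an unadjusted p under 0.05 (33.3%, against 31.3% of all genes). The smallest p in that list belonged to MICALL2, a Rab13 and Rab8 effector (0.26, adjusted p = 0.0914). Without sow 7 there was 1 call higher, and without sow 12 there was 1 call lower.

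The tethering complexes (28 of 53 measured) had 1 gene that rose and 3 that fell (4 of 28 called). The exocyst subunit EXOC2 rose (0.32 ± 0.07 SE, limma adjusted p = 0.0164), while the exocyst subunit EXOC6 and the TRAPP subunits TRAPPC2L and TRAPPC13 fell (-0.43, -0.31 and -0.31; adjusted p = 0.0331, 0.0376 and 0.0408). The count that fell went to 0 without sow 2, 3, 4, 5 or 9, to 1 without sow 6, 10 or 11, and stayed between 2 and 3 without each of the others.

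For clathrin, its adaptors and dynamin (25 of 56), 3 rose and 1 fell (16.0% called). AP1B1, a subunit of the adaptor of the trans-Golgi network and endosomes, had the largest difference, 0.80 ± 0.13 (SE; limma adjusted p = 0.00622). HIP1R, a clathrin and actin linker, rose by 0.45 (adjusted p = 0.0161), DNAJC6, which uncoats clathrin and is near the background level at 3.41 to 3.69, rose by 0.28 (adjusted p = 0.0447), and AP3M1, of the adaptor that sends cargo to lysosomes, fell by 0.29 (adjusted p = 0.0399). The count that fell was 0 without sow 1, 2, 3, 5, 6, 9, 10 or 11 and 2 without sow 8 or 12. The count that rose was 2 or more in every such fit, and was 2 without sow 1, 2, 3, 4, 5, 6, 9, 10 or 11.

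Retromer and the ESCRT complexes (26 of 42) held 0 that rose and 3 that fell (11.5% called). VPS28 and VPS25, subunits of ESCRT-I and ESCRT-II, which sort ubiquitinated cargo, had differences of -0.61 ± 0.13 and -0.23 ± 0.06 (SE; limma adjusted p = 0.0153 and 0.0457), and the ESCRT-III subunit CHMP2A one of -0.34 ± 0.08 (SE; adjusted p = 0.0190). There was 1 call lower without sow 2, and 2 without sow 3, 4, 5, 6, 7, 8, 9, 10 or 11. There was 1 call higher without sow 7 or 11.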

How the data were processed

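The authors deposited log2 values for each probe set and array; the submitters' processing notes name RMA, affy and limma and give no versions. After 124 control probe sets were removed from 24123, 23999 remained, and the platform annotation gave 1 symbol to 10069 of them, several to 198 and none to 13732. Of the 98 genes, 97 symbols were found in the RefSeq gene table, and RAB19 was not. A further 5 matching probe sets carried several symbols and were left out, among them 3 names found nowhere else. The array build was not given in the sources used here, so no positions are reported.

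R 4.3.3 with limma 3.58.1 (lmFit, eBayes, two-sided tests) gave the differences. Pregnancy and breed were additive terms over all 12 arrays, with 9 residual degrees of freedom. Contrasts within breed or status and the interaction came from a fit of 4 groups with 8. The procedure was tested on simulated data. RMA values carry no counts, so precision is set by how many arrays there are, and low values understate fold changes. Each sow is 1 sample, and the labels describe separate animals.

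The genes, the lists and the tests were chosen with earlier results of these data known. Named were all genes called for pregnancy or breed, the 3 with the smallest interaction p, the 2 largest differences in each role without a call, up to 4 called genes of each partner list by p (1 where none was called), and paralogs or complex members of these, given as ranges. RAB27B, SNX10, RAB19 and the other genes just outside the threshold were chosen after their values were seen. Alternatives were cyclic loess, median centring, array weights, removal of dim probe sets, a model without breed, a robust prior that follows intensity, other thresholds and probe set rules, and leaving out sows.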

Additional observations from a re-analysis of the deposited data

Results flagged for a closer look

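In 25 named genes, the highest and the lowest sow of both pregnancy groups were compared with their nearest neighbour by Dixon's criterion. Of the 50 groups checked, 6 held a sow whose gap to the next sow exceeded the critical share of the group's range for 6 sows. By chance about 1 in 20 independent groups of unselected genes would do so. The 25 genes were chosen by their values in these same sows, so the 6 of 50 cannot be weighed against that share.

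Non-pregnant sow 7 stood alone in 4 of the 6. It was the lowest of its group in RAB26 (6.52, against 10.62 for the next sow), in RAB3IP (6.99) and in STX18 (8.87), and the highest in STX11 (8.86, against 5.38 for the next sow). Pregnant sow 12 was the highest of its group in SNX3 (11.60, against 11.18 for the next sow). Pregnant sow 8 was the lowest of its group in SEC11C (9.05).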

How the results depend on the processing

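No paired analysis was possible because no replicate number is shared between the groups; neighbouring numbers are of 1 breed and opposite status, and whether they mark pairs or an order of processing was not tested. Under the alternatives 0 of 583 values of single genes reversed, 447 kept their direction and call, 117 lost the call and 19 gained one. Against 5 genes higher and 12 lower in pregnant sows, array weights gave 9 and 23, leaving out sows 7 and 12 together gave 9 and 19, no breed term 2 and 5, and an adjusted p under 0.01 2 and 0. The lower count was 19 of the 87 trafficking genes left without dim probe sets, and 7 with an intensity trend and robust prior. It was 21 at an adjusted p under 0.10, and 19 with the mean of all probe sets of a gene. Dim filtering leaves fewer probe sets to adjust over; for the rest the cause was not tested. Background shares moved too, to 8.20% higher and 13.8% lower of all genes with array weights and to 3.03% and 4.92% without the breed term, and the share of all genes that fell was above that of the trafficking genes without sow 5, 10 or 11 (4.39%, 4.82% and 5.81%, against 4.08% each time). Without dim probe sets 12.04% of all genes fell, against 21.84% of the trafficking genes. With the mean of all probe sets these shares were 9.80% and 19.39%, and with an intensity trend and robust prior 6.55% and 7.14%. Without sows 7 and 12 together they were 11.62% and 19.39%. Shares of all genes are not given for the other thresholds of adjusted p. Without single sows the counts ran from 2 to 8 higher and from 4 to 20 lower.

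In Landrace sows 2 genes were higher in every fit that left out 1 sow. Against 0 lower, 2 were lower without dim probe sets, with array weights and at an adjusted p under 0.10, 1 with the probe set of largest spread or the mean of all probe sets, and 3 without sows 7 and 12, and from 0 to 4 without single sows. Leaving out sows 7 and 12 gave 1 call for the interaction, 18 within Yorkshire, 6 within Landrace and 1 for breed among pregnant sows. Single sows left out gave 0 to 1, 0 to 13, 0 to 5 and 0 to 1, and 0 to 2 for breed among non-pregnant sows. The matching shares of all genes are not given for any of these counts, those by breed included. For pregnancy within Landrace, a fit on Landrace arrays alone gave 0 calls in place of 3. Without sows 7 and 12, the Rab cycle list had 1 higher and 1 lower, tethering complexes 5 lower, and retromer and ESCRT 1 higher. Without single sows the lists ran from 0 to 1 in both directions for the Rab cycle, 0 to 2 lower for Arf regulators, 1 to 3 lower for SNARE partners, 1 higher and 0 to 3 lower for tethering, 2 to 4 higher and 0 to 2 lower for clathrin, 0 to 1 higher and 1 to 3 lower for retromer and ESCRT, and 0 to 1 higher and 2 to 10 lower for export. With 3 sows a group, differences within a breed have wide errors.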
